A study of Mus musculus with 42 samples.

Results

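SMARCA2 and SMARCA4 are alternative ATPases, the motors of BAF complexes, which remodel chromatin. The sites described here are the SMARCA2/4 peaks that lie between genes in the hippocampus of euploid mice. They were taken from the euploid peak list by its region annotation, as every peak of the class for sequence outside promoters, gene bodies and chromosome ends. Of 22667 peaks in that list, 2901 had this class and 2846 of them were on placed chromosomes (the autosomes, X and Y), which is 12.6% of the 22612 placed peaks. The remaining 55 were on unplaced sequences and were left out.

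The study compared male euploid mice with Ts65Dn mice, a Down syndrome model that carries an additional dose of distal chromosome 16 and, joined to it, of proximal chromosome 17, and with Ts65Dn;Brwd1+/- mice, in which the copy number of Brwd1 was lowered on the trisomic background. Chromatin immunoprecipitation followed by sequencing (ChIP-seq) used hippocampal tissue of adult males, 6 to 8 weeks old, with a custom antibody to SMARCA2/4. Each genotype had 4 immunoprecipitated libraries and 4 inputs, and each replicate pooled tissue of 2 animals. Open chromatin was measured by ATAC-seq in sorted NeuN-positive (neuronal) hippocampal nuclei of adult males, with 3 libraries per genotype. Gene expression came from 3 euploid neuronal cultures of embryonic day 16 forebrain, pooled over both sexes. Each genotype and chromatin assay had 1 pooled peak list, so no spread between animals could be computed, and the genotype labels of these lists cannot be checked from the peaks.

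BAF complexes slide and evict nucleosomes, and in many cell types they are found at enhancers, the distal elements that act on promoters over long distances. In neurons, activity-dependent enhancers are bound by factors such as FOS, a component of the AP-1 dimer, and are known for genes that respond to synaptic activity. The whole hippocampus also holds astrocytes, oligodendrocytes, microglia and vessels, whereas the ATAC-seq nuclei were neuronal.

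The intergenic peaks held very different kinds of sequence, and examples of each are shown first. All are from the RefSeq GRCm38.p6 genome (mm10), plus strand. Lower case here does not mark repeats. The first set are 5 of the strongest narrow peaks that consisted of repeat-masked sequence and recurred in the SMARCA2/4 lists of all 3 genotypes, with their central 30 bases in capitals.
Cntn4, chr6:105120275-105120345: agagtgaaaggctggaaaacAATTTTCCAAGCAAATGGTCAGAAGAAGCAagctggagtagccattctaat
Pou4f1, chr14:104336961-104337030: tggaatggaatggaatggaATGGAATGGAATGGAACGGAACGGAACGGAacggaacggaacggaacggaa
Brinp3, chr1:145776766-145776830: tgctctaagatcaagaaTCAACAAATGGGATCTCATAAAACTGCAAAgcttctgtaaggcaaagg
Arid4b, chr13:14207217-14207280: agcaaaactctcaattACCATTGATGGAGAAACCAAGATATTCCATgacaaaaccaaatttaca
Zfp330, chr8:82605122-82605187: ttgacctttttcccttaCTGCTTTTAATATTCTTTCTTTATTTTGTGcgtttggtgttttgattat

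Each line names the protein-coding gene with the nearest start, which is not a claim that the gene is a target. The capitals are the bases whose exact copies were counted over both strands of the placed chromosomes. They occurred once for the Cntn4 and Pou4f1 peaks and 4, 13 and 24 times for the Brinp3, Arid4b and Zfp330 peaks. Tandem copies of the unit CATTC, in any phase and on either strand, covered 50% of the Pou4f1 peak. The next set are the 2 strongest peaks that also recurred in all 3 genotypes but held no repeat-masked base, again with the central 30 bases in capitals, each of which occurred once.
Grhl2, chr15:37183318-37183598: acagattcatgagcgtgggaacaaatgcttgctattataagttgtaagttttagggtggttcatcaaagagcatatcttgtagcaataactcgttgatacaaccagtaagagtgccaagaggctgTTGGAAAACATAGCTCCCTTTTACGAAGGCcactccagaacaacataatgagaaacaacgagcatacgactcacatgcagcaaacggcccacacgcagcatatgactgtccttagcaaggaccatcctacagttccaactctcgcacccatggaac
Hs3st1, chr5:40043706-40043961: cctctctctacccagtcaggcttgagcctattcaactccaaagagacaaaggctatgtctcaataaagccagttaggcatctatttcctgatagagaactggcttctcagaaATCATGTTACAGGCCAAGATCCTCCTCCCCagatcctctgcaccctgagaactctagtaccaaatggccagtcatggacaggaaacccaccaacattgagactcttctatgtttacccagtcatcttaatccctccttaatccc

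The third set are 300-base windows centred on peaks with a motif of a known factor, shown in capitals. They are the strongest peaks in neuronal open chromatin with the letters searched for RFX factors and for EGR factors, and the strongest peak outside it with the letters searched for CTCF. The last window belongs to a peak near Npas4, a neuronal activity-dependent transcription factor gene, where E-box letters and RFX letters overlap. This peak had a fold enrichment of 2.87, was repeat-masked over 67.0% of its bases and was not in the euploid ATAC list.
Hook2, RFX, chr8:84985648-84985947: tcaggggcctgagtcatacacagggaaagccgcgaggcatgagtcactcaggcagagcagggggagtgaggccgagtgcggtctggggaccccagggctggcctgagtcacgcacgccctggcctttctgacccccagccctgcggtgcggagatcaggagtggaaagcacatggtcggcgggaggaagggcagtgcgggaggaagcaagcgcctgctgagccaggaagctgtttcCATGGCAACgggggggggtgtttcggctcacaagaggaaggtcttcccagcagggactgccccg
Lclat1, EGR, chr17:73263244-73263543: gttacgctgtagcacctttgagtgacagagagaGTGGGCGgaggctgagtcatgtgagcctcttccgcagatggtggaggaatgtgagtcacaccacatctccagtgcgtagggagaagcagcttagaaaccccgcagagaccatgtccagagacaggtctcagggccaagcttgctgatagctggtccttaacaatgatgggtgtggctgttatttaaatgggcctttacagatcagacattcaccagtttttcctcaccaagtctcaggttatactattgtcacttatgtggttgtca
Hmgn3, CTCF, chr9:83162186-83162485: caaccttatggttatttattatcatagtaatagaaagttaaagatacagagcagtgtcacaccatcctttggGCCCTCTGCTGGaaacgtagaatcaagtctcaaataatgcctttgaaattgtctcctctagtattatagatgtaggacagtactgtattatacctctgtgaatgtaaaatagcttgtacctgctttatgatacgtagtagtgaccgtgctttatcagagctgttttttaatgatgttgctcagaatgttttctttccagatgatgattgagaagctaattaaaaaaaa
Npas4, RFX and E-box, chr19:4994016-4994315: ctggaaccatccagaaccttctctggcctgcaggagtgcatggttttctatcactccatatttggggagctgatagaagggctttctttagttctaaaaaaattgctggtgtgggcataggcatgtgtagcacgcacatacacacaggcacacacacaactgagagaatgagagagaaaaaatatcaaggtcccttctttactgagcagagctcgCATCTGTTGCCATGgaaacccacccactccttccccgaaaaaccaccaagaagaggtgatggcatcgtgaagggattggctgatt

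The intergenic peaks were narrow and most were of moderate strength. Their median width was 90 bases (quartiles 68 and 131, range 56 to 746). Peaks within 1 kb of each other formed 2113 regions, so several peaks could be pieces of a single site. Strength was the authors' fold enrichment, a linear ratio of immunoprecipitated signal over local background. Its median was 3.73 (quartiles 3.27 and 4.13, range 1.64 to 14.6), beside 3.67 for peaks in gene bodies and 3.77 for peaks at proximal promoters. The share of intergenic peaks stronger than the median of the whole list was 48.0%. It was 3.11 percentage points above that of gene body peaks (95% Newcombe interval 0.899 to 5.33), or 2.31 points (-0.253 to 4.88) and within counting error when peaks within 1 kb were counted as 1 region. It was 6.19 points below that of proximal promoter peaks (difference -6.19, interval -8.44 to -3.94). This difference was -3.28 points among peaks with q under 0.05 and fold over 1.2, and -3.67 points with -log10 q in place of fold. These and all later intervals cover counting error only and treat peaks as independent, which neighbouring pieces of a site are not.

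The top of the strength range was reached by another kind of peak, and no list of known high-signal regions or mappability track was used here to mark such peaks. The strongest intergenic peak, with a fold enrichment of 14.6, was a run of 278 bases on chromosome 17 (4626286 to 4626563), 368 kb upstream of Arid1b, a gene of a BAF subunit. Copies of the same unit CATTC covered 87.8% of its bases. The peak near Cntn4 followed with 12.9, that near Grhl2 with 12.2 and that near Pou4f1 with 10.8. All 10 of the strongest peaks were in the SMARCA2/4 lists of all 3 genotypes and none overlapped a euploid neuronal ATAC peak. Of the 20 strongest, 17 consisted of repeat-masked sequence over at least 50% of their bases, 15 were at most 80 bases wide, 19 were in all 3 lists and 0 were in the euploid ATAC list, while 1 overlapped an ATAC peak of a trisomic genotype. Outside the 50 strongest, no intergenic peak exceeded a fold enrichment of 5.78.

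The strongest peaks kept high values in the other genotypes. The peak near Cntn4, a cell adhesion gene, had a fold enrichment of 12.9 in the euploid, 15.9 in the Ts65Dn and 17.4 in the Ts65Dn;Brwd1+/- list. That near Brinp3 had 10.3, 12.8 and 12.6 in the same order, and that near Arid4b had 9.55, 10.8 and 11.996. All 3 had their lowest value in euploid. This did not hold for the array near Arid1b, with 14.6, 7.13 and 16.5, for the peak near Grhl2, with 12.2, 13.6 and 10.5, or for that near Pou4f1, with 10.8, 9.97 and 14.3. The array near Arid1b lies in the part of chromosome 17 that is triplicated in Ts65Dn. Each value is relative to the input and background of its own list.

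**Figure D1:**
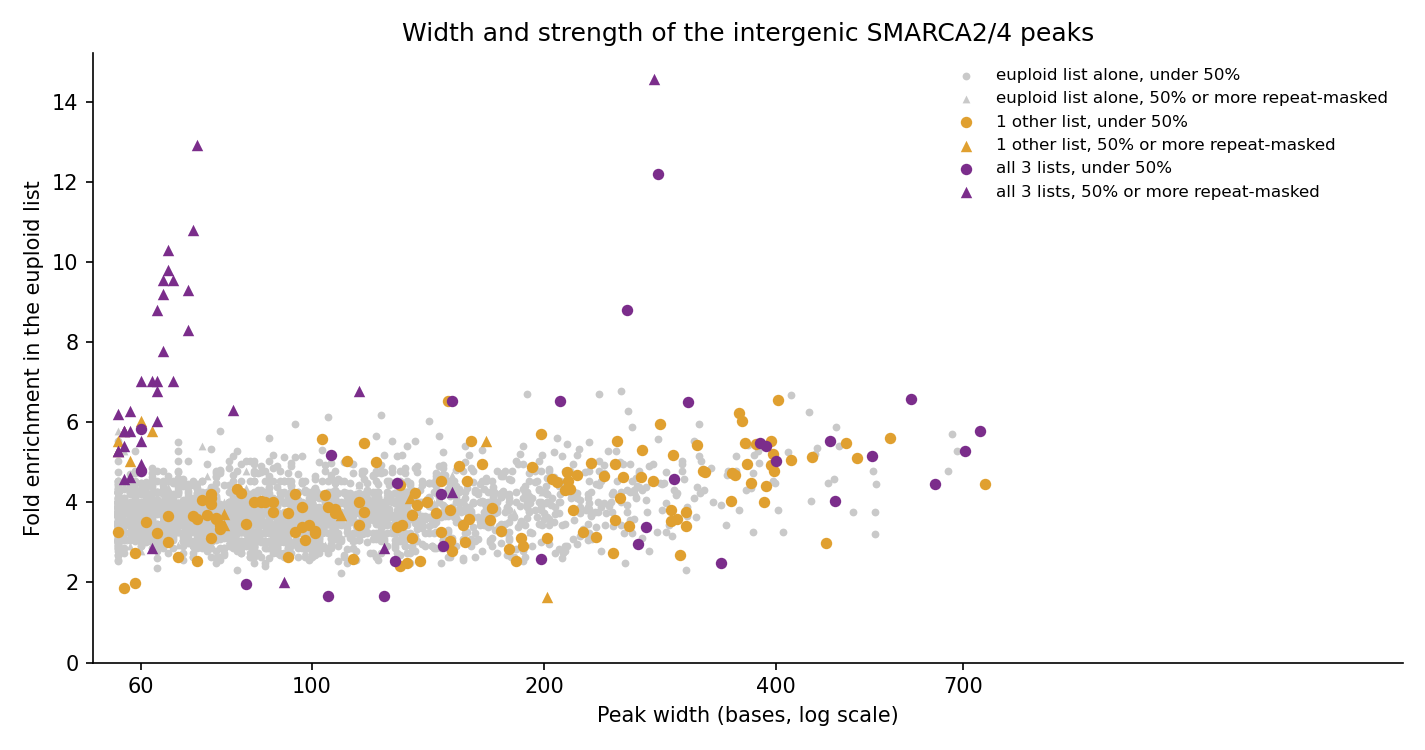
Width in bases (log axis) against fold enrichment in the euploid list for the 2846 intergenic SMARCA2/4 peaks; colour gives the SMARCA2/4 lists in which a peak was found and triangles mark peaks with at least 50% repeat-masked bases. The narrow repeat-masked peaks of all 3 lists stand as a column at the left that reaches a fold enrichment of 12.9, whereas no peak of the euploid list alone exceeds 6.78.

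Repeat-masked peaks were few, recurred more often in the other SMARCA2/4 lists and overlapped ATAC peaks less often. In 173 of the 2846 intergenic peaks at least 50% of the bases were soft-masked as repeats in the reference genome (6.08%). This share was 0.566 points above that of gene body peaks (Newcombe interval -0.450 to 1.65) and 4.41 points above that of proximal promoter peaks (3.51 to 5.40). The mean masked share of bases was 11.7% in the intergenic peaks and 36.4% in all 300-base tiles of the genome. Of the repeat-masked intergenic peaks, 20.8% were in all 3 SMARCA2/4 lists, compared with 1.12% of the others, a difference of 19.7 points (14.3 to 26.3). They overlapped a euploid ATAC peak in 10.4% of cases, compared with 24.2% of the others, a difference of 13.8 points (8.13 to 17.9). The central 30 bases occurred more than once in the genome in 57 intergenic peaks, of which 47 were repeat-masked. The authors kept uniquely aligned reads, and how reads from such copies were placed was not tested.

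Intergenic SMARCA2/4 peaks were densest close to genes. The median distance from a peak to the nearest start of a protein-coding gene was 33.4 kb (order-statistic 95% interval 31.0 to 35.3, quartiles 12.8 and 85.9), and to the nearest start of any annotated gene 14.4 kb (13.7 to 15.2). By distance to a protein-coding start, 215 peaks were under 5 kb, 346 between 5 and 10 kb, 1197 between 10 and 50 kb, 472 between 50 and 100 kb and 616 further away. Sequence outside protein-coding genes and at least 3 kb from their starts held 2774 of the peaks. Per megabase of it, there were 4.85 peaks below 5 kb, 3.89 between 5 and 10 kb, 3.15 between 10 and 50 kb, 2.13 between 50 and 100 kb and 0.723 beyond 100 kb. The zone beyond 100 kb made up 53.7% of that sequence and held 21.7% of these 2774 peaks. The decline was monotonic over these 5 bands.

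**Figure D2:**
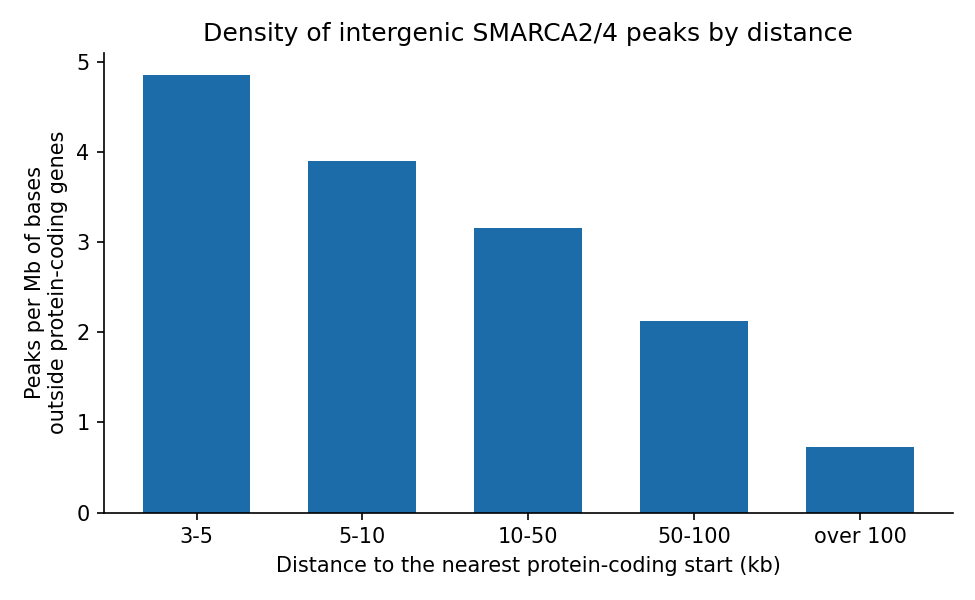
Intergenic SMARCA2/4 peaks per megabase of eligible sequence (outside protein-coding genes and at least 3 kb from their starts) by distance in kb to the nearest protein-coding start. The bars fall from 4.85 peaks per Mb in the nearest band to 0.723 in the furthest.

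The side of the gene also depended on distance. Over all intergenic peaks, 56.6% lay upstream of the nearest protein-coding start (Wilson 95% interval 54.7 to 58.4). The share was 75.8% below 5 kb, 62.1% between 5 and 10 kb, 56.6% between 10 and 50 kb, 53.8% between 50 and 100 kb and 48.7% further away. Downstream of a start, the gene itself takes up part of the room, and its share in this trend was not tested. The class of the authors' annotation was close to the GENCODE M21 annotation but not identical with it: 197 intergenic peaks (6.92%) overlapped an annotated gene, of which 78 were in a lincRNA, 53 in a protein-coding gene and 43 in a processed transcript.

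Open chromatin of neurons covered the intergenic peaks more often than gene body peaks and less often than proximal promoter peaks. A euploid neuronal ATAC peak overlapped 665 of the 2846 intergenic peaks by at least 1 bp (23.4%, Wilson 95% interval 21.8 to 24.96), compared with 14.6% of gene body peaks and 50.9% of proximal promoter peaks. The difference from gene body peaks was 8.75 points (Newcombe interval 6.98 to 10.6) and that from proximal promoter peaks was -27.6 points (-29.6 to -25.5). In the other promoter classes of the annotation, 1 kb and 3 kb, the shares were 23.2 and 11.2%. The euploid ATAC list covered 0.226% of the bases of the placed chromosomes. Read the other way, 23.5% of the 2330 intergenic euploid ATAC peaks held an intergenic SMARCA2/4 peak.

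The share did not rise steadily with strength. Over the quartiles of fold enrichment of the whole euploid list, from lowest to highest, the share of intergenic peaks in the euploid ATAC list was 22.9, 22.2, 21.1 and 27.3%. Within the highest quartile it was 14% for the 50 strongest peaks, with 0 of the first 20, and 37.0% for the 92 peaks ranked next. The difference from gene body peaks was between 6.84 and 9.58 points in the 4 quartiles, and its interval was above 0 in each. The share by distance was 18.1% below 5 kb, 21.4% between 5 and 10 kb, 23.5% between 10 and 50 kb, 25.6% between 50 and 100 kb and 24.4% beyond. Among the strongest intergenic peaks in open chromatin were 2 adjacent peaks 62.3 and 62.6 kb from the start of Mef2c, with fold enrichments of 5.88 and 5.58. Mef2c encodes a transcription factor of neuronal development and synapse number. A peak near Dapl1 at 6.71 and one near Lclat1 at 6.53 were the strongest in open chromatin.

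The ATAC lists of the trisomic genotypes were longer and overlapped more of the same peaks. The Ts65Dn ATAC list overlapped 1262 intergenic SMARCA2/4 peaks (44.3%) and the Ts65Dn;Brwd1+/- list 1242 (43.6%). These lists covered 0.457 and 0.469% of the bases, about the same as each other and more than the euploid list, so a larger overlap and a longer list cannot be told apart. Of the intergenic peaks, 628 (22.1%) were in all 3 ATAC lists, 448 (15.7%) in both trisomic lists without the euploid one, 12 in the euploid list alone and 1406 (49.4%) in none. The share in both trisomic lists without the euploid one was 15.1% for proximal promoter peaks (difference 0.625 points, interval -0.983 to 2.28) and 12.5% for gene body peaks (difference 3.28 points, 1.74 to 4.88).

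**Figure D3:**
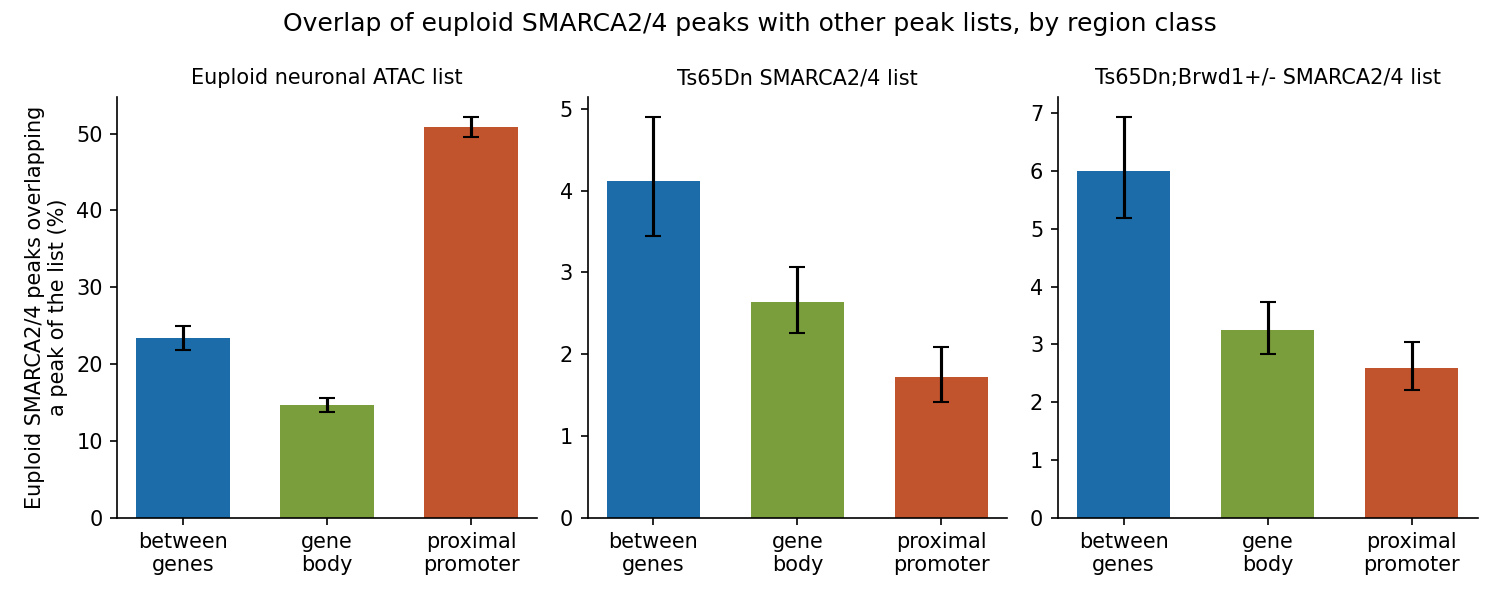
Percent of euploid SMARCA2/4 peaks between genes, in gene bodies and at proximal promoters that overlap a peak of the euploid neuronal ATAC list, the Ts65Dn SMARCA2/4 list and the Ts65Dn;Brwd1+/- SMARCA2/4 list by at least 1 bp; error bars are Wilson 95% intervals and the 3 panels have different scales. Intergenic peaks lie between the 2 other classes shown for ATAC (23.4%) and above both of them for the 2 SMARCA2/4 lists (4.11 and 6.01%).

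Few of the intergenic peaks were found again in the SMARCA2/4 lists of the trisomic genotypes. Those lists were short, with 1253 placed peaks in Ts65Dn and 1662 in Ts65Dn;Brwd1+/-, beside 22612 in euploid. The Ts65Dn list overlapped 117 of the 2846 intergenic peaks (4.11%, Wilson interval 3.44 to 4.90) and the Ts65Dn;Brwd1+/- list 171 (6.01%, 5.19 to 6.94). Of the intergenic peaks, 66 were in all 3 lists, 51 in the Ts65Dn list only besides the euploid one, 105 in the Ts65Dn;Brwd1+/- list only, and 2624 (92.2%) in neither. Seen from the trisomic lists, 119 of 245 intergenic Ts65Dn peaks (48.6%, 42.4 to 54.8) and 170 of 329 intergenic Ts65Dn;Brwd1+/- peaks (51.7%, 46.3 to 57.0) overlapped some euploid SMARCA2/4 peak. The trisomic lists also hold weaker calls, with 31.8% of Ts65Dn and 58.2% of Ts65Dn;Brwd1+/- peaks at a q-value under 0.05, beside 87.8% in euploid. A peak missing from a short list is not shown to lack binding, since the depth behind the lists is unknown here.

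Intergenic peaks were in the trisomic lists more often than gene body and proximal promoter peaks, and the differences were largest in the highest quartile of strength. In the Ts65Dn list they exceeded gene body peaks by 1.48 points (Newcombe interval 0.680 to 2.35) and proximal promoter peaks by 2.39 points (1.63 to 3.24). In the Ts65Dn;Brwd1+/- list the differences were 2.76 (1.81 to 3.78) and 3.42 points (2.49 to 4.43). In the highest quartile of fold enrichment 10.6% of intergenic peaks were in the Ts65Dn list and 14.2% in the Ts65Dn;Brwd1+/- list, beside 5.75 and 7.14% of gene body peaks. In the third quartile the intergenic shares were 1.62 and 2.51%, and their differences from gene body peaks were 0.198 (-0.833 to 1.55) and 0.676 points (-0.569 to 2.25). In the lowest quartile the Ts65Dn;Brwd1+/- list again held more intergenic than gene body peaks, by 1.83 points (0.249 to 3.70). Without repeat-masked peaks in either class, the Ts65Dn difference from gene body peaks was 0.405 points (-0.315 to 1.21), so it no longer exceeded counting error. The same difference for the Ts65Dn;Brwd1+/- list was then 1.60 points (0.717 to 2.56).

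**Figure D4:**
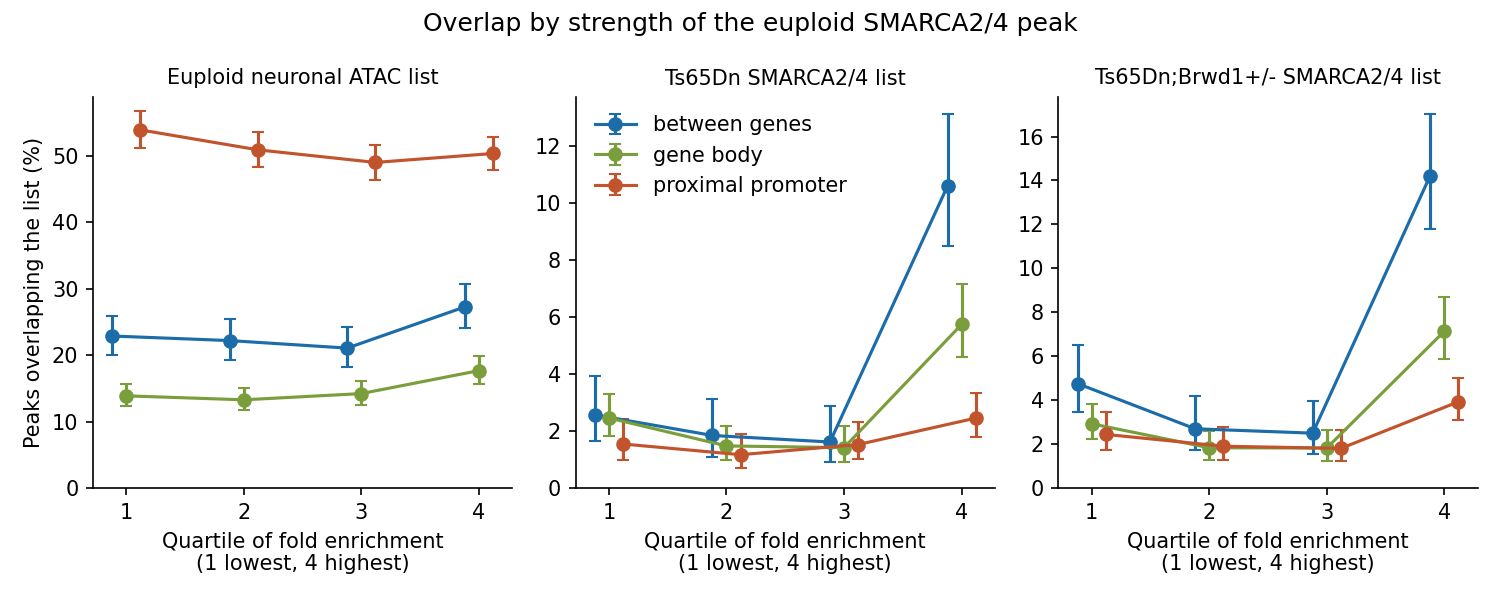
Percent of peaks that overlap each list, by quartile of fold enrichment in the whole euploid list, for peaks between genes (blue), in gene bodies (green) and at proximal promoters (red); bars are Wilson 95% intervals and the scales differ. For the SMARCA2/4 lists, the intergenic values are 10.6 and 14.2% in the highest quartile and at most 4.76% in the other 3.

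The 66 intergenic peaks of all 3 SMARCA2/4 lists fell into sets that looked unlike each other. In 36 of them at least 50% of the bases were repeat-masked. These had a median width of 63 bases, a median GC content of 36% over 300 bases and a median distance of 192406 bases to a protein-coding start. Their median fold enrichment was 6.54 in the euploid list, 7.44 in Ts65Dn and 8.997 in the Ts65Dn;Brwd1+/- list. The value was above the euploid one in 26 of the 36 for Ts65Dn and in 33 for Ts65Dn;Brwd1+/-. Only 2 of the 36 overlapped a euploid ATAC peak.

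The other 30 were wider and closer to genes. Their median width was 268 bases, their median GC content 51.3% and their median distance to a protein-coding start 25982 bases. Their median fold enrichment was 4.90, with 3.70 in the Ts65Dn and 3.91 in the Ts65Dn;Brwd1+/- list, and it was above the euploid value in 8 of the 30 for Ts65Dn and 15 for Ts65Dn;Brwd1+/-. Euploid ATAC peaks overlapped 12 of the 30. Nearest to them were, among others, Ddit4, a stress-response inhibitor of mTOR signalling, Irf2bp2, a transcriptional cofactor gene, and Bhlhe41, a repressor of the circadian clock. The peak near Bhlhe41, in open chromatin, had a fold enrichment of 4.59 in euploid, 3.42 in the Ts65Dn list and 3.60 in that of Ts65Dn;Brwd1+/-. In the same order, the peak near Ddit4 had 5.54, 4.13 and 4.19.

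A few of these 30 had a low fold enrichment with a low q-value. The peak near Gm10800 and a pair near Ly6c2 had euploid fold enrichments of 1.66, 1.67 and 2.59 with q-values of 0.00302, 0.00227 and 5.59e-10. Their Ts65Dn values were 1.53, 1.54 and 2.67. All 3 were in the euploid ATAC list.

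Peaks found in the Ts65Dn;Brwd1+/- list but not in the Ts65Dn list overlapped the euploid neuronal ATAC list more often than the reverse set. Of the 105, 45 overlapped a euploid ATAC peak (42.9%), compared with 11 of the 51 found in the Ts65Dn list only (21.6%), a difference of 21.3 points (Newcombe interval 5.40 to 34.5). In the Ts65Dn ATAC list the shares were 64.8% (Wilson interval 55.3 to 73.2) and 56.9% (43.3 to 69.5), and in the Ts65Dn;Brwd1+/- ATAC list 67.6% (58.2 to 75.8) and 45.1% (32.3 to 58.6), and these differences were not tested. Their median fold enrichments in euploid were 4.01 and 4.02 and the median GC content of both was 54.3%. The 105 were wider, with a median of 155 against 136 bases, and further from protein-coding starts, with a median of 38998 against 23356 bases, and the part of width and distance in the difference was not tested. Among the 2624 found in neither list the open share was 22.7%. The pooled lists allow no check of this difference between animals.

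Most intergenic peaks stood alone or in small groups, and a few loci held many. When peaks within 10 kb of each other were joined, 1859 clusters formed, of which 1330 held a single peak and 49 held at least 5. Those 49 contained 340 peaks (11.9%), and 18.5% of these overlapped a euploid ATAC peak. The largest cluster had 28 peaks in 24.9 kb on chromosome 15 (85663938 to 85688818), all within the processed transcript Lncppara, which also contains the let-7 microRNA genes Mirlet7c-2 and Mirlet7b, although the cluster ended upstream of both. Its median fold enrichment was 4.00, 1 of its peaks was in the euploid ATAC list, 5 were in that of Ts65Dn, 0 were in the Ts65Dn SMARCA2/4 list and 2 in the Ts65Dn;Brwd1+/- list. With 4.11% of all intergenic peaks in the Ts65Dn SMARCA2/4 list, 0 of 28 is no result about this cluster. The second held 15 peaks in 16.2 kb on chromosome 19 (5805991 to 5822204) between Malat1 and Neat1, which produce abundant nuclear noncoding RNAs, and 2 of the 15 were in the euploid ATAC list. In cultures, Malat1 had 553 CPM (library-scaled counts) ± 54.4 (SD, n = 3) and Neat1 77.4 ± 15.95 (n = 3). A cluster of 8 peaks lay between Grasp and the immediate early gene Nr4a1 on chromosome 15, and 7 of those 8 were in the Ts65Dn and 3 in the euploid ATAC list. Another 8 lay between Nr1d1, a circadian repressor gene, and Msl1.

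By gene, 1463 protein-coding genes had the nearest start to at least 1 intergenic peak, and 97 had at least 5. High numbers were 34 for Ppara, which is the neighbour of the let-7 locus, 20 for the splicing regulator Rbfox1, and 13 each for Cxxc5 and Irf2bp2. Joined within 1 kb, the peaks of these genes formed 9, 14, 2 and 5 regions in the same order. Another 5 genes had 12 each: Arap3, Ddit4, Irf2bpl, Tiam1 and Zfp706. Of the peaks nearest to Zfp706, 7 of 12 were in the euploid ATAC list, of those nearest to Ppara 1 of 34 and to Rbfox1 2 of 20. Over all intergenic peaks this share was 23.4%, and differences in openness between genes were not tested. The Ts65Dn SMARCA2/4 list held 5 of 13 peaks near Irf2bp2 and 0 of 34 near Ppara, beside 4.11% of all intergenic peaks. At that share, the 0 is no result about Ppara. The Ts65Dn;Brwd1+/- list held 4 of 13 and 2 of 34, beside 6.01% of all intergenic peaks. Of the genes with an intergenic peak, 36.6% also had the start nearest to a proximal promoter peak of the euploid list, compared with 17.9% of all protein-coding genes.

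Several genes of neuronal activity and of glutamatergic neurons were among the neighbours. Of 12 immediate early genes, which neurons transcribe within minutes of activity, 5 had an intergenic peak nearest to their start (41.7%), as did 5 of 15 glutamatergic neuron genes (33.3%), compared with 6.68% of all 21911 protein-coding genes. For 2 of 12 oligodendrocyte genes (Sox8 and Qk) and 2 of 23 BAF subunit genes (Arid1b and Brd7) the same was true. None of the 12 interneuron, 12 astrocyte, 12 microglia or 12 endothelium genes had one, which at a background of 6.68% is no result about lists of this size. A gene with wide flanks or many neighbouring peaks can enter such a count more easily, and flank length was not tested.

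The immediate early genes had 19 intergenic peaks, of which 8 overlapped a euploid ATAC peak (42.1%, Wilson interval 23.1 to 63.7), an interval that includes the 23.4% of all intergenic peaks. Fos had 7 peaks, between 10.998 and 18.6 kb from its start on both sides, with fold enrichments between 3.02 and 5.50, and 3 of the 7 were in the euploid ATAC list. Nr4a1, an orphan nuclear receptor gene, had 4 peaks with fold enrichments from 4.25 to 4.77, of which 3 were open in euploid and all 4 in both trisomic ATAC lists. Egr1 had 4 peaks and 1 of them was open, while Egr2 had 1, which was open. Npas4 had 3 peaks, none in the euploid ATAC list and 2 in the Ts65Dn SMARCA2/4 list. These 2 were the only peaks of the 19 in either trisomic SMARCA2/4 list, beside 222 of all 2846.

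The glutamatergic neuron genes had 16 intergenic peaks, of which 3 overlapped a euploid ATAC peak (18.8%, Wilson interval 6.59 to 43.0), which again includes 23.4%. Neurod2, a proneural transcription factor gene, had 7, with fold enrichments between 3.25 and 4.73, at 8.26 to 15.8 kb from its start, and 1 of the 7 was open. Mef2c had 5 peaks, all 62.3 to 64.7 kb from its start, of which 2 were open. Tbr1, Bcl11b and Camk2a had 1, 2 and 1, with none in the euploid ATAC list. With 222 of all 2846 peaks in a trisomic SMARCA2/4 list, the 0 found among these 16 is no result about these genes. Arid1b had 5 peaks, of which the strong array was the only one in the other SMARCA2/4 lists.

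Genes next to intergenic peaks were more highly expressed in euploid neuronal cultures than protein-coding genes in general. The median level of the 1463 nearest genes was 32.7, 32.8 and 32.4 CPM in the 3 libraries, beside 6.82, 6.64 and 7.10 CPM for all protein-coding genes, 45.7, 45.0 and 45.7 CPM for genes nearest to proximal promoter peaks and 48.7, 49.0 and 48.3 CPM for genes nearest to gene body peaks. The 97 genes with at least 5 intergenic peaks had medians of 60.4, 63.9 and 63.9 CPM. The 61 genes nearest to peaks of all 3 SMARCA2/4 lists had 16.99, 14.4 and 17.1 CPM. The order of these 6 sets was the same in each library, and they share genes. Among genes with at least 10 counts over the libraries, the medians were 42.5, 42.1 and 43.5 CPM for the nearest genes, 42.4, 39.8 and 39.8 CPM for those of all 3 lists and 24.2, 23.96 and 25.2 CPM for all protein-coding genes, so both gaps narrowed. The cultures were embryonic forebrain and the peaks adult hippocampus. Among named neighbours, Grhl2 had 0, 0.259 and 0.138 CPM and Pou4f1 0.339, 0.172 and 0.229 CPM, whereas Mef2c had 337, 283 and 260 CPM and Fos 10.9, 11.1 and 11.9 CPM.

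The intergenic peaks were richer in GC and in several motifs than the genome. The median GC content of 300-base windows was 50.7%, beside 63.0% for proximal promoter peaks, 49.7% for gene body peaks and 41.3% for all tiles of the placed chromosomes. Letters for AP-1 (TGANTCA) were in 16.6% of intergenic windows (Wilson interval 15.3 to 17.996), in 18.5% of gene body and in 6.42% of proximal promoter windows, and in 8.84% of all tiles. The letters of a CTCF core motif, capitalised in the Hmgn3 window, were in 5.62% of intergenic windows and 1.54% of tiles, those of RFX factors (GTTGCCATG) in 1.86 and 0.302%, those of EGR factors (GTGGGCG) in 5.69 and 0.737%, and the E-box letters CAGATG in 28.7 and 21.8%. The CRE letters (TGACGTCA) were in 0.562 and 0.160%, those of a MEF2 core motif in 3.72 and 5.12%, and those of an ETS motif in 0.176 and 0.198%. In proximal promoter and gene body windows, CTCF letters were in 2.69 and 4.765% and RFX letters in 0.904 and 1.24%. In the same order, EGR letters were in 12.1 and 3.63%, E-box letters in 13.9 and 31.9% and CRE letters in 1.75 and 0.585%. The part of GC content in the differences from the tiles was not tested. Both strands were searched, and a match of letters is a description and not a bound site.

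Motif content differed between peaks in neuronal open chromatin and the others. RFX letters were in 30 of 665 open windows (4.51%) and in 23 of 2181 others (1.05%), a difference of 3.46 points (Newcombe interval 2.02 to 5.35). EGR letters were in 9.62 and 4.49% (difference 5.13 points, 2.90 to 7.73). CTCF letters went the other way, with 3.61% of open and 6.24% of other windows (difference -2.63 points, -4.23 to -0.680). E-box letters were in 31.9 and 27.8% (difference 4.09 points, 0.165 to 8.17) and CRE letters in 8 of 665 (1.203%) and 8 of 2181 (0.367%) (difference 0.836 points, 0.146 to 2.00). AP-1 letters were in 17.9 and 16.2% (difference 1.71 points, -1.45 to 5.14), which did not exceed counting error. GC content also differed, with medians of 52.7 and 50.0%, and its part in these differences was not tested. The windows near Hook2, Lclat1 and Hmgn3 shown above hold the RFX, EGR and CTCF letters.

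**Figure D5:**
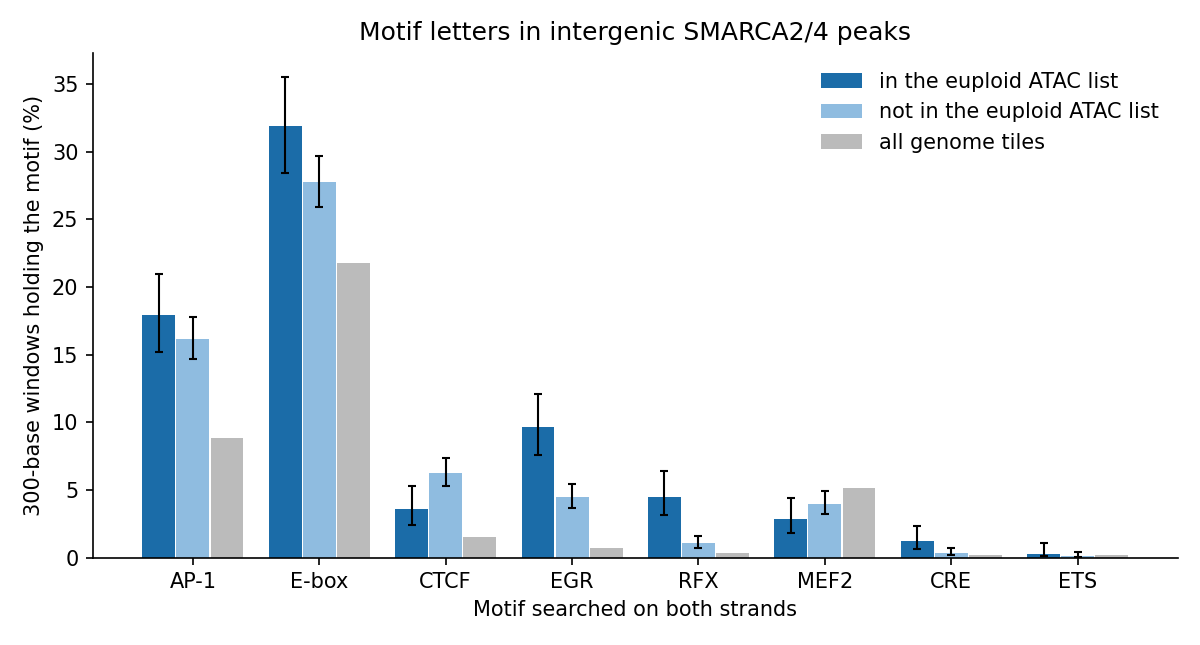
Percent of 300-base windows that hold each motif, for intergenic SMARCA2/4 peaks in the euploid neuronal ATAC list (dark blue, n = 665) and outside it (light blue, n = 2181), with Wilson 95% intervals, beside all tiles of the placed chromosomes (grey). RFX, EGR, E-box and CRE letters are more frequent in open windows (4.51, 9.62, 31.9 and 1.203%) and CTCF letters in the others (6.24%).

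The X chromosome held almost none of these peaks. There were 9 on X (0.0526 per Mb) and 2836 on the autosomes (1.15 per Mb). The whole euploid SMARCA2/4 list had 0.193 peaks per Mb on X and 9.17 on autosomes. In the same order, the Ts65Dn SMARCA2/4 list had 0.0643 and 0.503 and the Ts65Dn;Brwd1+/- list 0.0760 and 0.668 per Mb. The euploid ATAC list, also from males, had 1.40 and 6.19 per Mb. Of the 9 intergenic peaks on X, 5 were repeat-masked, 5 were in another SMARCA2/4 list and 0 were in the euploid ATAC list. Of all 2846 intergenic peaks, these numbers were 173, 222 and 665, so among 9 peaks the 0 is no result about X. Among autosomes the density was highest on chromosome 15 (2.32 per Mb) and chromosome 11 (1.94 per Mb) and lowest on chromosome 3 (0.719 per Mb).

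The segment that is triplicated in Ts65Dn, taken as the part of chromosome 16 distal to Mrpl39 and the part of chromosome 17 proximal to Pde10a, held 38 of the euploid intergenic peaks. Of these 38, 10 were in the euploid ATAC list (26.3%, Wilson interval 15.0 to 42.0), 3 were in the Ts65Dn SMARCA2/4 list (7.89%, 2.72 to 20.8) and 4 in the Ts65Dn;Brwd1+/- list (10.5%, 4.17 to 24.1). The shares outside the segment were 23.3, 4.06 and 5.95%, which lie within these intervals. Tiam1, a guanine nucleotide exchange factor of dendritic spines, had 12 of the 38 peaks. None of the 12 was in a trisomic SMARCA2/4 list, which beside 222 of all 2846 intergenic peaks is no result about Tiam1. Of the 12, 3 were in the euploid ATAC list and 8 in that of Ts65Dn, beside 23.4 and 44.3% of all intergenic peaks. Dyrk1a, a kinase gene of the segment, had 2 peaks with fold enrichments of 4.01 and 2.74, and the first was in the Ts65Dn;Brwd1+/- list. Hunk had 3 and Pde10a 4, and the peak 19.2 kb from Pde10a, with a fold enrichment of 4.94, was in the Ts65Dn list. Arid1b had 5, and among them the array of CATTC copies was in both trisomic SMARCA2/4 lists.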

How the data were processed

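Reads had been aligned to mm10 with HISAT2 and duplicates removed by the authors, who called ChIP-seq peaks with MACS against input and ATAC-seq peaks with shifted and extended reads, and annotated them with diffReps. They deposited 1 pooled list per genotype and assay, with a fold enrichment (a linear ratio) and a q-value per peak. The q-values of the deposited euploid ChIP-seq list reach 0.153, and 87.8% are under 0.05; those of both trisomic lists reach 1, with 31.8% (Ts65Dn) and 58.2% (Ts65Dn;Brwd1+/-) under 0.05, so the stated filter of 0.05 does not describe these lists. Depth per library is unknown. Culture RNA was deposited by the authors as raw counts per gene, with totals from 20663650 to 23207352 in the 3 euploid libraries; CPM are these counts scaled to equal totals. Lines that name no gene held 39.0 to 39.9% of all counts and were left out.

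The peaks, gene lists and comparisons were chosen with earlier results of these data known. Overlap needed 1 bp. Distances were taken from peak middles to GENCODE M21 transcript starts. Of 28069 transcripts named in the lists, 95.1% had the same position there. Shares have Wilson and differences Newcombe 95% intervals, and medians order-statistic intervals. No p-value was computed, because the lists are pooled. Sequence came from RefSeq GRCm38.p6, in which soft-masked bases mark repeats. Printed sequences, clusters within 10 kb and repeat masking were chosen after values were seen. Named genes are those nearest to the 10 strongest peaks, the 10 genes with most peaks, the 10 strongest peaks of all 3 lists, peaks in the triplicated segment and genes of the fixed lists, and some others were named after their values were seen. Some genes that this rule names are not reported here. CPM used totals of gene lines, with TMM of edgeR 4.0.16 (R 4.3.3) as the alternative. Other code used Python 3.11.15, pandas 2.3.3, scipy 1.17.1 and pysam 0.24.0. Overlap, distance, interval and motif functions were tested on simulated data.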

Additional observations from a re-analysis of the deposited data

How the results depend on the processing

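No paired analysis was possible because each genotype has 1 pooled peak list and only levels of 1 group of cultures were used. Of 127 alternative values of 26 results, 49 moved and 78 did not, and 0 changed direction. A share, difference or distance counted as moved outside the 95% interval of the reported value, a median CPM beyond 1 SD of the libraries, and the number of peaks beyond 1.5 times (it ranged from 2444 to 2852). Requiring an overlap of 50% of the shorter peak gave 18.2% of intergenic peaks in the euploid, 37.7% in the Ts65Dn and 36.3% in the Ts65Dn;Brwd1+/- ATAC list and 4.99% in the Ts65Dn;Brwd1+/- SMARCA2/4 list, with -24.4 points to proximal promoter peaks for euploid ATAC. Widening the other list by 500 bp gave 35.8, 61.9 and 61.0% for ATAC, 7.59% (Ts65Dn), 11.03% (Ts65Dn;Brwd1+/-) and 3.76% (all 3 lists), with ATAC differences of 10.8 points to gene body and -34.7 to proximal promoter peaks and 3.81 points to gene body peaks for the Ts65Dn;Brwd1+/- list. With q under 0.05 and fold over 1.2, the shares were 3.03% (Ts65Dn) and 4.75% (Ts65Dn;Brwd1+/-), and the strength difference to proximal promoter peaks -3.28 points, or -3.67 with -log10 q in place of fold. Among peaks in the higher-fold 50% of the list, they were 6.14% for Ts65Dn (2.71 points over gene body and 4.12 over proximal promoter peaks), 8.41% for Ts65Dn;Brwd1+/- (4.10 and 5.47 points), 3.95% for all 3 lists, and 47.0 and 45.5% for the Ts65Dn and Ts65Dn;Brwd1+/- ATAC lists.

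The next 3 alternatives (masking, single-copy centres and 1 kb regions) were chosen after seeing the data. Under 50% repeat-masked, the shares were 2.92% for Ts65Dn (0.405 points over gene body, interval -0.315 to 1.21, and 1.28 over proximal promoter peaks), 4.71% for Ts65Dn;Brwd1+/- (1.60 and 2.30 points), 1.12% for all 3 lists, and 46.2 and 45.5% for trisomic ATAC. With central 30 bases that occur once, they were 3.26% (1.57 points over proximal promoter peaks), 4.98% (2.47 points) and 1.47%. Counting peaks within 1 kb as 1 region gave 25.3, 47.4 and 47.6% for the euploid, Ts65Dn and Ts65Dn;Brwd1+/- ATAC lists, -31.3 points to proximal promoter peaks for euploid ATAC, and 5.11 and 7.38% for the Ts65Dn and Ts65Dn;Brwd1+/- SMARCA2/4 lists. The strength difference to gene body peaks was then 2.31 points (-0.253 to 4.88), within counting error. Among the other settings, the median distance fell to 14.4 kb with all annotated genes, and the median level of nearest genes was 42.7 CPM with at least 10 counts over the 3 libraries and 32.5 to 32.8 CPM without 1 library each. The fewer or wider peaks counted follow from each alternative's construction; other causes were not tested. The lists limit every comparison, since neither depth nor replicates stand behind a missing peak.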
